A study of Mus musculus with 20 samples.

Results

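Atf4 and 8 genes known as its companions or targets in the integrated stress response (Atf5, Ddit3, Trib3, Chac1, Asns, Sesn2, Ddit4 and Nupr1) were followed through 20 mouse tumours. The genes were chosen by symbol: every listed Ensembl identifier that the GENCODE vM21 annotation of mm10 maps to 1 of these 9 symbols was taken. This gave 10 of the 55335 listed identifiers, since Ddit3 has 2. All 9 symbols had 1 identifier among the 13982 genes that reached at least 1 FPKM in at least 5 libraries and were tested. The second Ddit3 identifier (ENSMUSG00000116429) overlaps the first on the same strand, was listed at 0.00135 to 0.569 FPKM and was not tested. FPKM is the number of fragments scaled by gene length and library size. No measured value enters the rule, but the set was named with earlier results of these data known, so the counts below describe it and give it no independent support.

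CT26, a colon carcinoma line that arose in BALB/c mice, was the source of the tumours, and RNA came from whole tumour tissue. The design crossed 2 cell types with 2 treatments in groups of 5: cells with an empty vector or with a POLE mutant, each given PBS, the saline vehicle, or an antibody against PD-1, an inhibitory receptor of T cells. POLE is the catalytic subunit of DNA polymerase epsilon; the labels name it throughout, while the series title names CHEK2, so the groups are called vector and mutant here. The labels give neither the mutation, the number of cell clones, nor the strain, age, dose or time of sampling. Replicate numbers follow the order of deposition and serve as names.

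The integrated stress response begins with kinases that sense stress and phosphorylate the translation initiation factor eIF2: PERK for unfolded protein in the endoplasmic reticulum, GCN2 for lack of amino acids, PKR for double-stranded RNA and HRI for lack of haem. General translation then slows while Atf4 mRNA, held back at other times by short upstream reading frames, is translated more. The ATF4 protein pairs with C/EBP proteins and other leucine zipper factors on composite DNA elements and switches on genes for amino acid supply, redox balance and, when stress lasts, cell death. Tumours use this programme where nutrients or oxygen are short. Only RNA was measured here, so translation and the ATF4 protein were not seen.

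The promoters of 4 of the 9 genes hold the letters TGATGNAA, a form of the composite C/EBP-ATF element, on either strand. They are shown because 3 of these genes, Trib3, Chac1 and Asns, had the greatest falls of the 9 on the log2 scale used below, and Ddit4 is shown because it went the other way. Atf4, Atf5, Ddit3 and Sesn2 fell as well and held no match. Of these, Atf5 (-1.51) and Ddit3 (-1.35) fell more than Nupr1 (-1.04), which has a match. The sequences shown were thus picked by the values, and a link between the letters and the falls was not tested. RefSeq promoter windows of GRCm38.p6 run from 250 bases before to 50 after a gene's start, and all 9 symbols matched, with 10 windows. Each sequence is written 5′ to 3′ on the gene's strand with the matched letters or their reverse complement in capitals, and stretches inside annotated exons were kept short.
Asns, chr6:7693225-7693459, minus strand: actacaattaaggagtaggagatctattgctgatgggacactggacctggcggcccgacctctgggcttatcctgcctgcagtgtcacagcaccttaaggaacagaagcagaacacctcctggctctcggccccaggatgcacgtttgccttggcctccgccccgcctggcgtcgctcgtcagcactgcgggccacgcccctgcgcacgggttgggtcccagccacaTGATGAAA
Chac1, chr2:119350992-119351241, plus strand: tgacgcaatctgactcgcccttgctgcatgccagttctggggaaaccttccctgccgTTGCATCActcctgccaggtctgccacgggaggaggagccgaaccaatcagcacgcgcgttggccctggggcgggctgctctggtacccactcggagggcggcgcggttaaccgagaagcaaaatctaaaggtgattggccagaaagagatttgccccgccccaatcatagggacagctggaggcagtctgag
Trib3, chr2:152344028-152344057, minus strand: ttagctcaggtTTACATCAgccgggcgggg
Nupr1, chr7:126625562-126625591, minus strand: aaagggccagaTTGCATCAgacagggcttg
Ddit4, chr10:59951835-59952020, minus strand, no match: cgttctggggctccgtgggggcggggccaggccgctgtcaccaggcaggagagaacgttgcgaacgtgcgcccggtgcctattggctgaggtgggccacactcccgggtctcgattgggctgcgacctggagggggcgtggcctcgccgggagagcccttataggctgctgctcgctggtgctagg

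The match in Asns lies at -23 to -16 from the start, that in Chac1 at -193 to -186, that in Nupr1 at -110 to -103 and that in Trib3 at 15 to 22. Of all 32851 windows in the table, 3.97% hold the same letters. The cyclic AMP response element TGACGTCA was in 0 of the 10 windows and in 1.79% of all, and the endoplasmic reticulum stress element, CCAAT and CCACG with any 9 bases between, was in 0 and in 0.119%. The motifs were searched on both strands, and a match describes letters in a short window, not a bound site.

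The members spanned a wide range of levels. In vector tumours given PBS, Atf4 at 193 ± 19.2 FPKM and Atf5 at 185 ± 30.1 were the most abundant (mean ± SD, n = 5 here and for every group mean below), followed by Asns at 104 ± 19.0. Ddit3 at 33.6 ± 8.47, Nupr1 at 24.1 ± 2.01, Ddit4 at 21.3 ± 7.13, Trib3 at 19.3 ± 4.78 and Chac1 at 12.2 ± 3.74 formed a middle range in which neighbours overlapped. Sesn2 was lowest at 6.56 ± 0.768. The depth of the libraries is unknown, so no counting error is given.

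Of the 20 libraries, 3 stood apart: vector anti-PD-1 replicate 1 and mutant anti-PD-1 replicates 1 and 2 had mean Spearman correlations with the rest of 0.776, 0.748 and 0.835, against 0.899 to 0.93 for the other 17. Identifiers in the sample titles come in 2 styles, with a leading M (11 libraries) or without (9, called number-only), and what the style marks is not stated. All 3 libraries apart are M-style, and mutant anti-PD-1 replicates 1 and 2 are the only M-style libraries of their group. The fits therefore include a term for the style, and results are also given without these 3 libraries and within each style. The fit without these 3 and the number-only fit keep the same mutant anti-PD-1 tumours, replicates 3 to 5. Totals ran from 328740 to 566913 FPKM, and 11182 to 13769 genes reached 1 FPKM in a library.

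**Figure D1:**
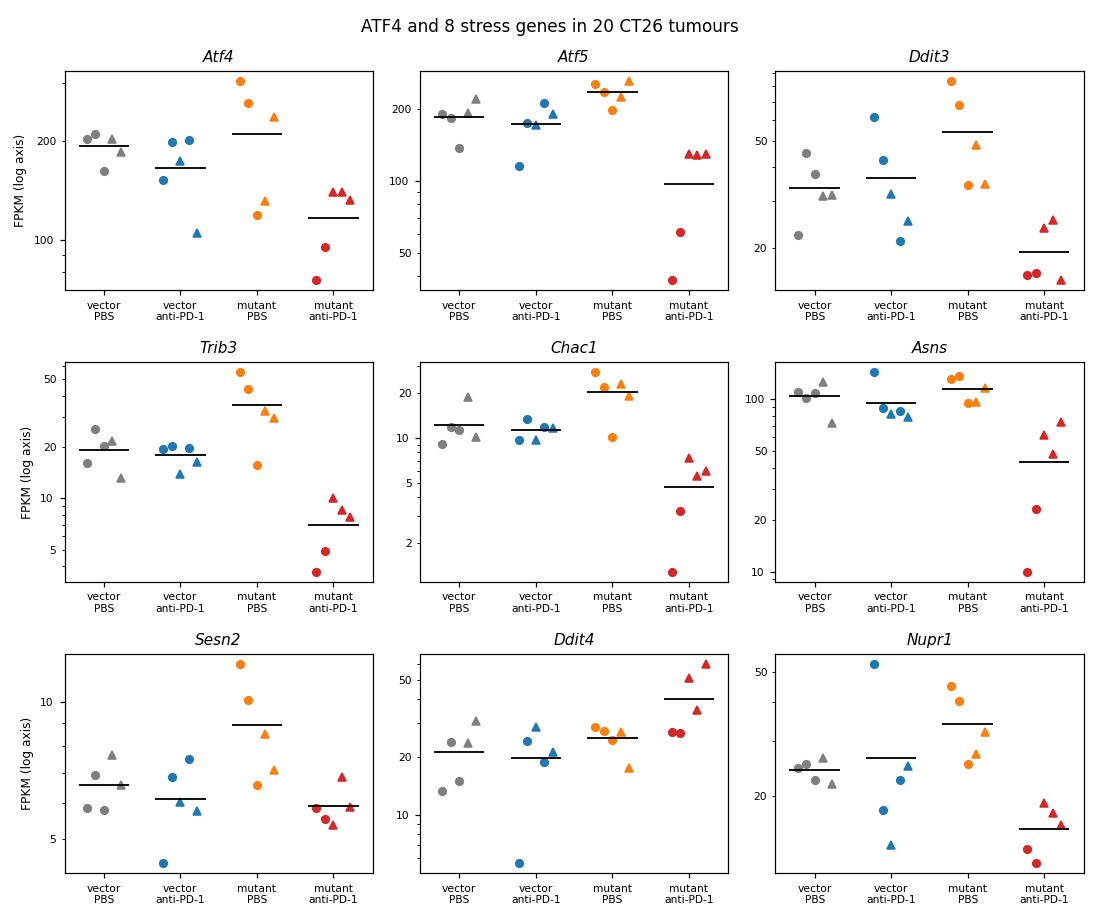
FPKM of the 9 genes in each of the 20 tumours on a log axis, by group; circles are M-style and triangles number-only libraries, and the line is the group mean. For Atf5, Ddit3, Trib3, Chac1, Asns and Nupr1 all 5 mutant anti-PD-1 tumours lie below all 5 mutant PBS tumours, while Ddit4 runs up to 60.5 FPKM in the mutant anti-PD-1 group.

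Among mutant tumours, anti-PD-1 went with lower RNA of 8 of the 9 genes. Relative to PBS the mean level was 0.199 for Trib3, 0.232 for Chac1, 0.357 for Ddit3 and 0.379 for Asns, and of the 8 Sesn2 fell least, to 0.666. Ddit4 did not pass the test, with a mean ratio of 1.6. By limma on log2(FPKM + 1), with Benjamini-Hochberg adjustment over all tested genes and a threshold of 0.05, 8 of 9 members were called lower and 0 higher, where 14.6% of all genes were called lower, 15.9% higher and 30.5% in all. The median log2 fold change was -1.35 over the members and -0.1 over all genes. In 6 of the 9 genes the groups did not overlap in this direction, as was the case for 11.8% of all genes.

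Atf4 encodes the transcription factor itself (ENSMUSG00000042406, chr15:80255184-80257541). Its level was 305, 261, 119, 132 and 236 FPKM in mutant PBS replicates 1 to 5, and 75.8, 95.5, 140, 140 and 133 in mutant anti-PD-1 replicates 1 to 5. The groups overlapped, because PBS replicates 3 and 4 lay below the 3 highest anti-PD-1 tumours. The log2 fold change was -0.79 ± 0.26 (SE; limma adjusted p = 0.0291). This call held in 11 of 21 alternative settings and was lost, for instance, without the 3 libraries that stood apart, at -0.37, and in number-only libraries, at -0.36. It was also lost when mutant PBS replicate 1, 2 or 5 or mutant anti-PD-1 replicate 1 or 2 was left out, at -0.71 to -0.61, with adjusted p up to 0.41 over the 21 settings.

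Atf5, a related leucine zipper factor under similar translational control (ENSMUSG00000038539, chr7:44812256-44816658), separated the groups fully. It stood at 255, 236, 198, 225 and 263 FPKM in mutant PBS tumours and at 38.5, 61.3, 130, 128 and 130 in mutant anti-PD-1 tumours. All 5 treated tumours were below the lowest PBS tumour, and replicates 1 and 2 were far below the other 3. The log2 fold change was -1.51 ± 0.24 (limma adjusted p = 0.00015), past the threshold in 21 of 21 settings, but its size ran from -2.21 in M-style to -0.91 in number-only libraries. Atf5 overlaps Nup62 and Il4i1 on the opposite strand, and the strandedness of the libraries is not given in the sources used here, so reads from the partners could not be told apart. Nup62 itself was not past the threshold, with a log2 fold change of 0.71 (limma adjusted p = 0.25).

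Ddit3 encodes CHOP, a factor linked to cell death under lasting endoplasmic reticulum stress (ENSMUSG00000025408, chr10:127290774-127296288). Mutant PBS tumours held 84.0, 68.2, 34.4, 48.4 and 34.7 FPKM and mutant anti-PD-1 tumours 15.9, 16.2, 23.7, 25.5 and 15.2. The groups did not overlap, and unlike Atf5 the lowest treated tumour was a number-only library, replicate 5. The log2 fold change was -1.35 ± 0.29 (limma adjusted p = 0.00217), past the threshold in 21 of 21 settings. Ddit3 overlaps Mars, a methionyl-tRNA synthetase gene on the opposite strand that also fell by 1.01 on the log2 scale (limma adjusted p = 0.00104), and the share of reads between them is uncertain.

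Trib3, a pseudokinase that ATF4 and CHOP induce and that feeds back on them (ENSMUSG00000032715, chr2:152337422-152344032), had the greatest log2 fold change of the 9. Its values were 54.9, 43.5, 15.8, 32.4 and 29.7 FPKM in mutant PBS tumours against 3.73, 4.93, 10.1, 8.54 and 7.8 in mutant anti-PD-1 tumours. The highest treated tumour was below the lowest PBS tumour, replicate 3. The change was -2.14 ± 0.29 (limma adjusted p = 3.7e-05), at -2.71 in M-style libraries, -1.71 in number-only libraries and -1.64 without the 3 libraries apart.

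Chac1, a gamma-glutamylcyclotransferase that degrades glutathione (ENSMUSG00000027313, chr2:119351229-119354381), followed Trib3 closely. Mutant PBS tumours held 27.4, 21.9, 10.2, 22.8 and 19.0 FPKM, and mutant anti-PD-1 tumours 1.28, 3.25, 7.28, 5.6 and 6.03. Replicate 3 was again the lowest of the PBS group, and replicates 1 and 2 the lowest of the treated group. The change was -2.05 ± 0.28 (limma adjusted p = 3.89e-05). Both Trib3 and Chac1 passed in 21 of 21 settings.

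Asns makes asparagine from aspartate and glutamine (ENSMUSG00000029752, chr6:7675169-7693254). It stood at 131, 136, 94.3, 95.5 and 116 FPKM in mutant PBS tumours and at 9.99, 23.0, 61.6, 48.3 and 74.0 in mutant anti-PD-1 tumours. The groups did not overlap, yet the size rested on few tumours: the log2 fold change of -1.72 ± 0.37 (limma adjusted p = 0.00202) was -2.88 in M-style libraries and -0.79 in number-only libraries, and -0.81 without the 3 libraries apart. It passed in 21 of 21 settings.

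Nupr1, a small stress-induced chromatin protein (ENSMUSG00000030717, chr7:126623249-126630861), was at 45.0, 40.5, 25.2, 27.2 and 32.0 FPKM in mutant PBS tumours and at 13.4, 12.1, 18.9, 17.6 and 16.1 in mutant anti-PD-1 tumours. Groups did not overlap, and the change was -1.04 ± 0.26 (limma adjusted p = 0.00585; 21 of 21 settings). Sesn2, a sestrin that senses leucine and restrains the growth kinase mTORC1 (ENSMUSG00000028893, chr4:132492032-132510501), moved little. Its values were 12.1, 10.1, 6.59, 8.5 and 7.08 FPKM in mutant PBS tumours and 5.86, 5.55, 5.37, 6.86 and 5.9 in mutant anti-PD-1 tumours. Only replicate 4 of the treated group reached into the PBS range. The change of -0.49 ± 0.15 (limma adjusted p = 0.021) passed in 14 of 21 settings. It was lost without the 3 libraries apart, in each identifier style alone, with a term for skeletal muscle RNA, and without mutant PBS replicate 1 or 2 or mutant anti-PD-1 replicate 2 (at -0.46 to -0.38), with adjusted p up to 0.129.

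Ddit4, known as REDD1, is an mTORC1 inhibitor that ATF4, hypoxia, p53 and glucocorticoids can each induce (ENSMUSG00000020108, chr10:59949669-59951834). It was at 28.6, 27.1, 24.6, 26.8 and 17.6 FPKM in mutant PBS tumours and at 26.8, 26.7, 51.0, 35.0 and 60.5 in mutant anti-PD-1 tumours. Treated replicates 1 and 2 were level with PBS, and the other 3 were above every PBS tumour. The log2 fold change of 0.50 ± 0.31 was not past the threshold (limma adjusted p = 0.233). In number-only libraries it was 1.1 (limma adjusted p = 0.0184) and without the 3 libraries apart 0.81 (limma adjusted p = 0.04), while M-style libraries gave 0.0. With sample weights Ddit4 was also called higher (limma adjusted p = 0.00497).

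Markers of several cell types moved with these changes. From PBS to anti-PD-1 in mutant tumours, 6 of 6 tested T cell markers, 6 of 7 macrophage and 7 of 7 fibroblast markers were higher. So were 4 of 5 endothelial and 2 of 6 neutrophil markers, and 1 of 3 epithelial markers was lower. None of the 14 skeletal muscle, 3 adipocyte, 1 keratinocyte and 5 red cell markers tested was called. Of all genes 15.9% were called higher and 14.6% lower. Summed over its 7 genes, the T cell list lay at 0.95 to 24.1 FPKM in mutant PBS tumours and 46.7 to 78.8 in mutant anti-PD-1 tumours, and the 7 macrophage genes at 337 to 977 and 1500 to 3760. The 5 epithelial genes (Epcam, Cdh1 and 3 keratins) summed to 7.64 to 16.0 and 1.81 to 7.91 FPKM, so the defining epithelial markers were at low levels in all these tumours, and none was at 0 in every tumour of a group. In bulk tissue, fewer tumour cells and less RNA per cell cannot be told apart, and the part of cell makeup in the falls above was not tested.

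The same markers differed between tumours of 1 group in which the members differed. Mutant anti-PD-1 replicates 1 and 2 had macrophage sums of 3760 and 3140 FPKM and fibroblast sums of 2360 and 1500, where replicates 3 to 5 had 1500 to 1860 and 281 to 345. Replicate 1 was the lowest of its group for 5 of the 9 members and replicate 2 for 2, Nupr1 and Ddit4. In the PBS group, mutant replicate 3 was lowest for 8 of 9 members. It had the highest T cell sum, 24.1 FPKM, the highest macrophage sum, 977, the highest fibroblast sum, 399, and a skeletal muscle sum of 1280 against 1.55 to 231 in the other 4. Mutant PBS replicate 1, highest for 7 of 9 members, had the lowest macrophage and fibroblast sums, 337 and 75.1. Other tumours did not follow this pattern. The T cell and macrophage sums of mutant PBS replicate 2, 5.32 and 640, were exceeded only by replicate 3, yet it was lowest for 0 members. Vector anti-PD-1 replicate 4 had the highest T cell and macrophage sums of its group, 5.41 and 1030. It was highest for 3 members and lowest for 1. With a term for skeletal muscle RNA, 6 of 9 members were called lower, and 2584 of all 13982 genes were called, 1585 of them higher.

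**Figure D2:**
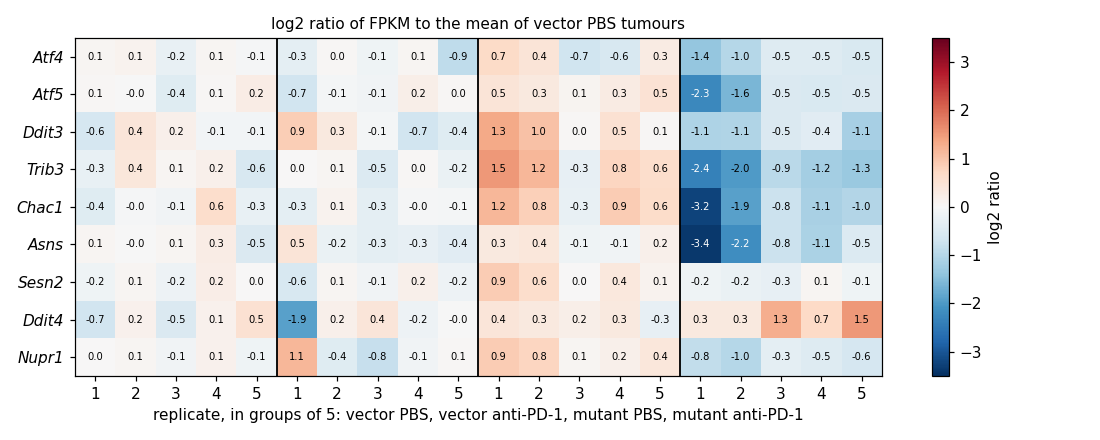
Each cell is the log2 ratio of a gene's FPKM in 1 tumour to the mean of the 5 vector PBS tumours; columns are replicates 1 to 5 of each group and red is higher. Mutant PBS replicates 1 and 2 are the reddest columns, mutant anti-PD-1 replicates 1 and 2 the bluest, and the Ddit4 row lies above 0 in all 5 mutant anti-PD-1 tumours, where the other 8 genes lie below 0 except Sesn2 in replicate 4, at 0.06.

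In vector tumours no such change was seen. Anti-PD-1 against PBS called 0 of 9 members and 0 of all 13982 genes (0%) with limma; at an unadjusted p under 0.05 the counts were 0 and 426. With sample weights 5 genes were called, and in number-only libraries 1, neither of them a member. Log2 fold changes of the members ran from -0.25 ± 0.26 for Atf4 to 0.05 ± 0.29 for Ddit3, with a median of -0.1 beside -0.08 for all genes.

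In vector tumours Trib3 was at 16.1, 25.4, 20.2, 21.7 and 13.2 FPKM under PBS and at 19.5, 20.3, 14.0, 19.8 and 16.3 under anti-PD-1. Chac1 was at 9.11, 11.9, 11.3, 18.6 and 10.2 under PBS and at 9.61, 13.3, 9.68, 11.9 and 11.7 under anti-PD-1. For both genes the groups overlapped and neither stood to 1 side of the other. Atf4 was at 162 to 210 FPKM under PBS and at 105 to 201 under anti-PD-1, and Atf5 at 137 to 220 and 116 to 213. Vector anti-PD-1 replicate 1, the library apart, carried the highest Ddit3, Asns and Nupr1 of its group, at 61.3, 143 and 53.3 FPKM, and the lowest Ddit4, at 5.67. The other 4 tumours of that group held 21.2 to 42.6 FPKM of Ddit3 and 18.8 to 28.7 of Ddit4.

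The difference between the 2 responses was tested directly as an interaction. It was past the threshold and negative for 4 of 9 members, Trib3, Chac1, Atf5 and Ddit3, where 1.95% of all genes were called in that direction, 7.4% in the other and 9.35% in either. For Trib3 the mutant response minus the vector response was -2.07 ± 0.40 on the log2 scale (limma adjusted p = 0.00581). Chac1 gave -1.97 ± 0.39 (limma adjusted p = 0.0061) and Atf5 -1.40 ± 0.33 (limma adjusted p = 0.0149). These 3 genes passed in 30, 30 and 31 of 31 settings, Trib3 failing without the 3 libraries apart and Chac1 in number-only libraries. In number-only libraries Trib3 gave -1.56, Chac1 -1.23 and Atf5 -0.72, and in M-style libraries -2.69, -2.73 and -2.16. Ddit3 at -1.40 ± 0.41 (limma adjusted p = 0.04) passed in 14 of 31. Its call was lost when any 1 of 11 single libraries was left out (vector PBS replicates 1, 3, 4 and 5, vector anti-PD-1 replicate 2, mutant PBS replicates 1, 2 and 4, mutant anti-PD-1 replicates 1, 2 and 5), at -1.44 to -1.23, with adjusted p up to 0.189 over the 31 settings. Asns, with -1.59 ± 0.52, missed the threshold (limma adjusted p = 0.0604), as did Nupr1, Atf4, Sesn2 and Ddit4, the last at 0.71. Asns passed without mutant anti-PD-1 replicate 3 or 5, at -1.75 and -1.81, and in M-style libraries alone. Nupr1 passed without vector anti-PD-1 replicate 3, at -1.23.

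**Figure D3:**
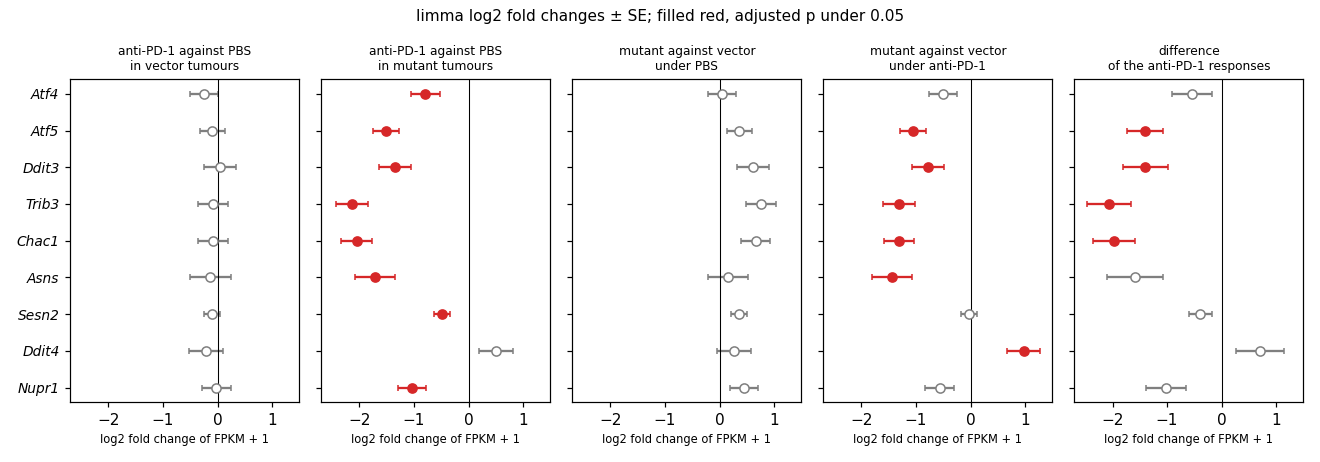
Log2 fold change ± SE of each gene in 5 limma contrasts on log2(FPKM + 1), filled red where the adjusted p is under 0.05. In vector tumours all 9 points lie near 0 between -0.25 and 0.05; in mutant tumours 8 lie below 0 and are filled; under PBS all 9 lie above 0 and none is filled.

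Under PBS, the mutant tumours held more of these RNAs on average, but not beyond the test. All 9 fold changes of mutant against vector under PBS were above 0, with a median of 0.36 beside 0.0 for all genes. 0 of 9 members were called, against 1.45% of all genes. At an unadjusted limma p under 0.05 the counts were 4 of 9 members and 1536 of all 13982 genes. The highest were Trib3 at 0.76 ± 0.28 (limma adjusted p = 0.255), Chac1 at 0.66 ± 0.27 (limma adjusted p = 0.349) and Ddit3 at 0.61 ± 0.29 (limma adjusted p = 0.444), and the lowest was Atf4 at 0.04.

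No member separated these groups, where 3.3% of all genes did with the mutant higher and 5.74% with it lower, and mutant PBS tumours differed widely among themselves. Trib3 ran over 3.46-fold within the mutant PBS group, from 15.8 FPKM in replicate 3, inside the vector range, to 54.9 in replicate 1. Atf4 ran from 119 to 305 FPKM around the narrow vector range of 162 to 210. With sample weights, Ddit3, Trib3, Chac1 and Sesn2 were called higher, as were 1193 of all 13982 genes. Without the 3 libraries apart, none of which is from a PBS tumour, only Atf5 was called higher, beside 683 of all genes. In the main fit 74 of all genes were called higher. Since the same mutant PBS tumours are the reference for the response to the antibody, the comparisons are not independent of each other.

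Under anti-PD-1 the mutant tumours were below the vector tumours for most members and above them for Ddit4. Here 5 of 9 were called lower, where 15.1% of all genes were, and 1 higher, where 17.8% were (32.9% in either direction). The median was -0.78 beside 0.0. Trib3, Chac1 and Asns did not overlap between the groups, as 7.83% of all genes did not in this direction. The log2 fold change was -1.44 ± 0.37 for Asns (limma adjusted p = 0.00621), -1.31 ± 0.29 for Trib3 (limma adjusted p = 0.00212), -1.31 ± 0.28 for Chac1 (limma adjusted p = 0.00157) and -1.05 ± 0.24 for Atf5 (limma adjusted p = 0.00265). Ddit3, at -0.78 ± 0.29 (limma adjusted p = 0.0469), passed in 9 of 21 settings and was lost without vector anti-PD-1 replicate 1, 2 or 3 or mutant anti-PD-1 replicate 1, 2 or 5, at -0.78 to -0.6, with adjusted p up to 0.509 over the settings. Atf4, Nupr1 and Sesn2 were not past the threshold, with -0.51, -0.57 and -0.03, though Nupr1 passed without vector anti-PD-1 replicate 3, at -0.78.

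These differences were smaller away from the libraries that stood apart. Without the 3 libraries, Asns gave -0.38, Trib3 -0.8, Chac1 -0.85 and Atf5 -0.58, and the calls of Asns, Trib3 and Ddit3 were lost. In number-only libraries Asns gave -0.4, Trib3 -0.72 and Chac1 -0.68, and the calls of Asns, Chac1 and Ddit3 were lost. Both fits keep the same mutant anti-PD-1 tumours, replicates 3 to 5, so they are not separate checks of that group. The Asns values show the smaller difference: mutant replicates 1 and 2 lay at 9.99 and 23.0 FPKM, replicates 3 to 5 at 48.3 to 74.0 and the vector tumours at 78.6 to 143. Ddit3 in vector anti-PD-1 tumours spanned 21.2 to 61.3 FPKM and overlapped the mutant range of 15.2 to 25.5.

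Ddit4 was the member called higher. Vector anti-PD-1 tumours held 5.67, 24.1, 28.7, 18.8 and 21.2 FPKM and mutant anti-PD-1 tumours 26.7 to 60.5, with an overlap of the highest vector tumour with the lowest mutant ones. The log2 fold change was 0.97 ± 0.31 (limma adjusted p = 0.0227), at 0.92 in number-only libraries and 0.93 without the 3 libraries apart. The call was lost in M-style libraries, at 0.9, and without mutant anti-PD-1 replicate 5, at 0.86. Averaged over both treatments, Ddit4 was also the 1 member called, at 0.62 ± 0.22 (limma adjusted p = 0.0471), where 24.7% of all genes were called and 13.6% in this direction. That call held in 12 of 31 settings. It was lost when any 1 of 12 libraries was left out (vector PBS replicates 1, 3 and 4, vector anti-PD-1 replicate 5, mutant PBS replicates 1 to 4, mutant anti-PD-1 replicates 1, 2, 3 and 5), at 0.56 to 0.65. Asns in turn passed without vector PBS replicate 5 or mutant anti-PD-1 replicate 5, at -0.75 and -0.76. In M-style libraries alone Asns and Atf5 both passed, and both were lower.

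The group order of the means differed between members. Trib3 stood highest in mutant PBS tumours, at 35.3 ± 14.7 FPKM. Vector PBS tumours followed at 19.3 ± 4.78, then the vector tumours given antibody at 18.0 ± 2.73 and the mutant tumours given antibody at 7.02 ± 2.62, and the vector pair did not differ beyond their spread. Chac1, at 20.3 ± 6.37, 12.2 ± 3.74, 11.2 ± 1.59 and 4.69 ± 2.40 in the same order, and Atf5, at 235 ± 26.0, 185 ± 30.1, 173 ± 35.7 and 97.4 ± 44.1, had the same order. For Sesn2 the mutant anti-PD-1 mean of 5.91 ± 0.576 was within the spread of both vector means, 6.56 ± 0.768 and 6.12 ± 1.16, and mutant PBS tumours stood above at 8.87 ± 2.27. Ddit4 was highest where these were lowest, with a median of 35.0 FPKM (26.7 to 60.5) in mutant anti-PD-1 tumours against means of 19.7 ± 8.68 to 24.9 ± 4.35 in the other 3 groups.

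Across the 20 tumours, the 8 members other than Ddit4 rose and fell together, with Pearson r from 0.33 to 0.96 (median 0.74) over their 28 pairs on log2(FPKM + 1). Trib3 and Chac1 were the closest pair. After removing the 4 group means, the range was -0.03 to 0.85 and the median 0.53. The 8 pairs with Ddit4 ran from -0.53 to 0.25, and from -0.48 to 0.6 within groups. These tumours share groups, libraries and cell makeup, so the values are descriptions.

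The genes outside the set most like the mean of the members' z-scores over the 20 tumours were Aars (r = 0.96), an alanyl-tRNA synthetase, Slc25a33 (0.955), a mitochondrial pyrimidine nucleotide carrier, Lonp1 (0.947), a mitochondrial protease, Soat2 (0.94), a sterol acyltransferase, and Mthfd2 (0.937), a mitochondrial folate enzyme. Soat2 fell from 12.8 to 35.4 FPKM in mutant PBS tumours to 2.26 to 7.18 in mutant anti-PD-1 tumours. After removing group means the closest were Nle1 (0.906), Slc25a33 (0.898), Aars (0.885), Brix1 (0.883) and Ptprn (0.881). Nle1 and Brix1 act in ribosome assembly.

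Upstream of ATF4, the list of eIF2 kinases and other eIF2 controls had 1 of 14 genes higher and 5 lower from PBS to anti-PD-1 in mutant tumours, with a median of -0.26. In this comparison, here and for the lists below, 15.9% of all genes were higher and 14.6% lower. Of all 13982 genes, 3097 were called without the 3 libraries apart, 4317 in number-only and 3126 in M-style libraries. The count was 2584 with the skeletal muscle term. Of these, 1705, 2366, 1819 and 1585 were higher. Eif2ak2, which encodes the interferon-inducible kinase PKR, was higher by 0.71 (limma adjusted p = 0.0155). The genes of the other 3 kinases were not past the threshold: Eif2ak1 (HRI) at 0.09, Eif2ak3 (PERK) at 0.13 and Eif2ak4 (GCN2), whose adjusted p was 0.996. Ppp1r15a, which encodes the phosphatase subunit GADD34 that ends the response and is itself a target of it, fell by 1.23 (limma adjusted p = 0.0141). It ran from 23.1 to 73.1 FPKM in the mutant PBS group and from 9.48 to 22.9 in the treated one, which did not overlap. Eif2s1, the phosphorylated subunit eIF2 alpha, fell by 0.55 (limma adjusted p = 0.00319). Without the 3 libraries apart, 1 gene of this list was higher and 1 lower. The call of Eif2ak2 was lost in M-style libraries, at 0.5, and with the skeletal muscle term, at 0.61. That of Ppp1r15a was lost in both and also without the 3 libraries apart, at -0.95, and in number-only libraries, at -0.85.

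Amino acid supply genes fell almost throughout in the mutant tumours given antibody. All 9 tested genes of serine, proline and one-carbon synthesis were lower, with a median of -1.04, among them Aldh1l2 at -1.93, Mthfd2 at -1.43, Shmt2 at -1.24 and Aldh18a1 at -0.93. Of 8 amino acid transporters 6 were lower, with a median of -1.13, and the smallest adjusted p was that of the glutamine transporter gene Slc1a5, at -1.13 (limma adjusted p = 5.08e-05). The cystine transporter gene Slc7a11 was not past the threshold, at -0.2 and with 0.704 to 2.52 FPKM over the 20 tumours. Of 12 cytosolic aminoacyl-tRNA synthetase genes 11 were lower, with a median of -1.0, Aars at -1.14 and Tars at -1.18 among them. Wars, named here after its values were seen, was the exception at 0.27 (limma adjusted p = 0.508). Without the 3 libraries apart the same lists had 7 of 9, 6 of 8 and 11 of 12 genes lower, with medians of -0.63, -0.61 and -0.56. Wars was past the threshold there and higher, at 0.75, as it was in number-only libraries, at 0.66, and with sample weights, at 0.52.

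Wars, the tryptophanyl-tRNA synthetase, is known to be induced by interferon-gamma as well as by ATF4. It was the 1 gene of these lists called in mutant against vector tumours under PBS, and 1 of 12 synthetase genes. Of all genes 1.45% were called there and 0.529% were called higher. The log2 fold change of Wars was 1.22 (limma adjusted p = 0.0378). Its call was lost in M-style libraries, at 1.24, and with the skeletal muscle term, at 1.2. With sample weights and without the 3 libraries apart, 5 of 12 synthetase genes were called higher in each. Of 16 unfolded protein response genes, 5 and 6 were called higher, and with sample weights 1 was called lower. Of all 13982 genes, 1193 and 683 were called higher in these settings. Without the 3 libraries the medians of the lists were 0.27 and 0.24, as in the main fit. Wars stood at 11.5 ± 1.71 FPKM in the vector PBS group, at 28.5 ± 6.54 in the mutant PBS group and at 40.3 ± 16.7 in mutant anti-PD-1 tumours.

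Other known ATF4 targets split. In mutant tumours given antibody 6 of 15 were lower and 1 higher, with a median of -0.75. Without the 3 libraries apart 4 were lower, with a median of -0.42, and in number-only libraries 4, with a median of -0.17. M-style libraries and the fit with the skeletal muscle term each gave 3 lower. Lonp1 at -1.32, Herpud1 at -0.99 and Gpt2 at -0.75 fell, the second coding for a membrane protein of endoplasmic reticulum degradation and the third for an alanine aminotransferase. Atf3, an immediate stress factor that macrophages also express, rose by 1.66 (limma adjusted p = 0.00271), from 2.54 to 6.88 FPKM in mutant PBS tumours to 8.31 to 35.8 in mutant anti-PD-1 tumours.

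The other arms of the unfolded protein response moved less in this fit. Of 16 chaperone and sensor genes 1 was lower, Hsp90b1 at -0.43 (limma adjusted p = 0.00871), and 0 were higher, with a median of -0.3. Hspa5, the chaperone BiP, averaged 274 ± 70.9 FPKM in the mutant PBS group and 161 ± 27.2 in the treated one, with a log2 fold change of -0.85 (limma adjusted p = 0.0878). The count for this list depended on the setting: without the libraries apart 7 of 16 were lower and with sample weights 10 were, at medians of -0.34. Of all 13982 genes, 3097 and 6460 were called in these settings, 1705 and 2942 of them higher. In the main fit 14.6% of all genes were lower and 15.9% higher. Of the lists for other inducers of Ddit4 or Sesn2, hypoxia had 0 of 10 genes called, with Ldha at -0.5 (limma adjusted p = 0.109) and Egln3 at 0.41 (limma adjusted p = 0.314). The p53 list had 7 of 12 lower and 2 higher, with Bbc3 at -0.89, Eda2r at -1.17 and Sesn1, a sestrin gene, at 1.41. In M-style libraries and with the skeletal muscle term 3 of the 12 were lower in each. Of 5 tested glucocorticoid targets 1 was higher, Sgk1 at 0.59 (limma adjusted p = 0.0467), and 0 were called in M-style libraries or with the skeletal muscle term. The hypoxia median was -0.18, and it was -0.7 in M-style and 0.31 in number-only libraries.

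**Figure D4:**
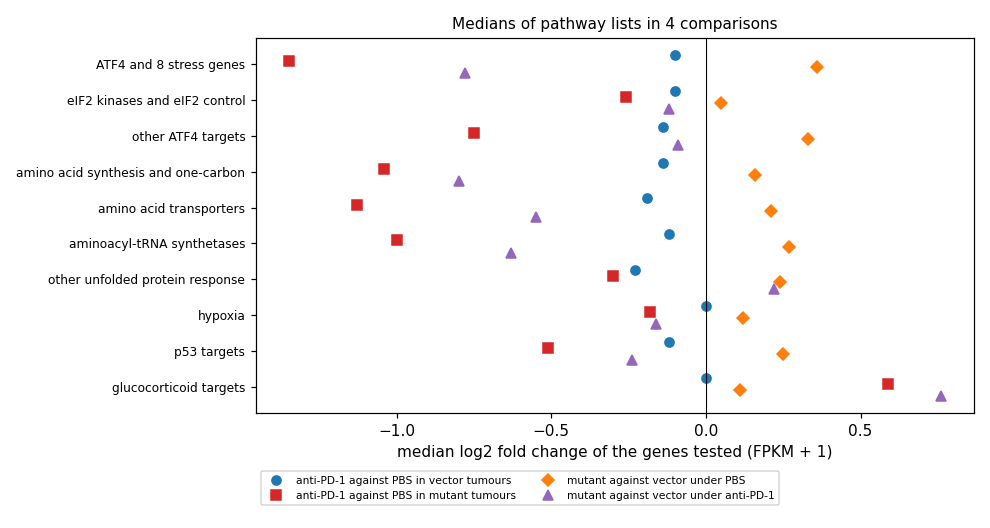
Median log2 fold change of the tested genes of each list in 4 limma contrasts. For the synthesis, transporter and synthetase lists the squares (mutant anti-PD-1 against PBS) lie at -1.04, -1.13 and -1.0, near the members' -1.35, while hypoxia lies at -0.18 and glucocorticoid targets at 0.59; vector medians (circles) lie between -0.23 and 0.0.

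In vector tumours 0 genes of any list were called. Under anti-PD-1, mutant against vector tumours had 7 of 9 synthesis genes, 3 of 8 transporters and 9 of 12 synthetase genes lower, with medians of -0.8, -0.55 and -0.63, and Wars higher at 1.22. Without the 3 libraries apart, 2 synthesis genes and 1 synthetase gene were lower, and the transporter count was 3 as before. In number-only libraries the counts were 2, 2 and 1, and in M-style libraries 7, 4 and 10. With sample weights they were 3, 4 and 3. In the main fit of this comparison 15.1% of all genes were called lower and 17.8% higher. The higher call of Wars was lost in M-style libraries, at 0.55. For the difference of the responses, 2 of 9, 2 of 8 and 5 of 12 were called lower, the smallest adjusted p in each list being those of Shmt2 at -1.21, Slc1a5 at -1.06 and Yars at -0.85. Of all genes 1.95% were called lower and 7.4% higher. Without the 3 libraries apart the list counts were 0, 0 and 2, and in number-only libraries 0, 1 and 1. They were 5, 3 and 7 in M-style libraries and 6, 5 and 8 with sample weights. Of all 13982 genes, 387, 1164, 1156 and 3214 were called in these 4 settings, in either direction. Of the other ATF4 targets, Lonp1 at -1.31 and Herpud1 at -0.85 were called, and neither passed without the 3 libraries apart, in number-only or in M-style libraries.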

How the data were processed

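Total RNA from 20 CT26 tumours was sequenced, with 1 file per library. The header names no unit. The deposited values were taken as FPKM from Cuffnorm, which the submitters' processing notes name (no role or order is given) together with FastQC, STAR 2.5, DESeq and mm10, and from values that are never negative, not whole and sum to different totals. The sources used here do not give the annotation, strandedness, treatment of multi-mapped reads or any scaling. Low values were searched for a step worth 1 read: at the best ratio 13.3% to 19.3% were whole within 5% over 19 library pairs, so no reads were recovered and the depth is unknown.

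Values were tested as log2(FPKM + 1), a scale that understates changes of low genes, for genes of at least 1 FPKM in at least 5 libraries (13982). One limma model (3.58.1, R 4.3.3, trend on) took all 20 libraries, the 4 groups and the identifier style. Its 6 contrasts were each adjusted over all genes (Benjamini-Hochberg), and 0.05 was the threshold. The plan also named a test for counts, which did not apply. Tables were made in Python 3.11.15 with numpy 2.4.6 and pandas 2.3.3. The fit was also run on simulated independent values. These held no libraries apart and no effect of identifier style, so that run says nothing about either. Symbols and coordinates are from GENCODE vM21 (mm10), promoters from RefSeq GRCm38.p6. The start of 9 of the 10 windows was found in a vM21 transcript of the gene; that of the Trib3 window was not, as it begins further upstream.

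Members and lists were chosen with earlier results of these data known. Within a list and contrast, up to 4 genes past the threshold with the smallest p were named, or else the 2 with the smallest p; genes named outside this rule (eIF2 kinases, Hspa5, Slc7a11, Wars in mutant tumours) were chosen after their values were seen or for their role. The labels give each sample an identifier but do not say that it is a separate animal, so p-values measure the spread between these samples. Alternatives were a pseudocount of 0.1 FPKM, no filter, at least 10 libraries, no style term, upper quartile scaling, no trend, sample weights, a skeletal muscle term, 3 subsets of libraries and leaving out each library in turn. The list counts under 5 of these were added after seeing the data.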

Additional observations from a re-analysis of the deposited data

Results flagged for a closer look

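In 36 groups of 5 values (9 genes in 4 groups), a tumour far from the others was found in 2, both in vector anti-PD-1 replicate 1, the library of that group that correlated least with the rest. Its Asns was 143 FPKM against 78.6 to 88.7 in the other 4, with a gap of 0.843 of the group's range, and its Nupr1 was 53.3 FPKM against 13.8 to 24.9, with a gap of 0.718. The limit is 0.71, and about 1 group in 20 passes it by chance. The response to anti-PD-1 differed between mutant and vector tumours by a limma interaction test for Trib3 (-2.07 on the log2 scale, adjusted p = 0.00581), Chac1 (-1.97, adjusted p = 0.0061), Atf5 (-1.40, adjusted p = 0.0149) and Ddit3 (-1.40, adjusted p = 0.04).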

How the results depend on the processing

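For mutant tumours, 6 to 8 members were called over all alternatives, and 6 to 8 when 1 library was left out. The count includes Ddit4, called higher, with sample weights, without the 3 libraries apart and in number-only libraries. In these settings 7, 6 and 6 members were called lower. In vector tumours 0 were called in every alternative run. Mutant against vector under PBS went from 0 members to 4 with sample weights and 1 without the 3 libraries apart (0 to 0 with 1 library left out). Under anti-PD-1 the 6 became 3 both without those 3 libraries and in number-only libraries (4 to 6 with 1 left out). The difference of responses went from 4 to 2 in the same settings (3 to 5 with 1 left out). The averaged difference had 1 member, Ddit4, called higher (0 to 2 members with 1 library left out). It went to 0 with a pseudocount of 0.1, no filter, at least 10 libraries, no style term, the skeletal muscle term or number-only libraries. In M-style libraries 2 other members, Atf5 and Asns, were called, both lower, and Ddit4 was not called. No member past the threshold changed sign. The cause of these shifts was not tested. The subsets hold fewer libraries, but none of the 3 libraries apart came from a PBS tumour. Without them the member median of mutant against vector under PBS stayed at 0.36, while calls of all genes rose from 203 to 1643.

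Counts of all genes moved by over 1.5 times in some settings. In mutant tumours 4271 became 2584 with the muscle term and 6460 with sample weights (2754 to 4354 with 1 library left out). Under PBS 203 became 2710 with sample weights, 1643 without the 3 libraries and 12 in M-style libraries (83 to 215). For the difference of responses 1308 became 804 with the stricter filter, 3214 with sample weights and 387 without the 3 libraries (688 to 2247). Averaged over treatments 3455 became 5451 with sample weights and 1955 with the muscle term (2629 to 4991). No paired analysis was possible because the replicate numbers follow the order of deposition and pair no tumours. With unknown depth, no counting error could be set beside low values such as Chac1 at 1.28 FPKM.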
